A study of Mus musculus with 16 samples.

Results

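The 9 genes of retinoid metabolism described here in mouse liver were the retinoic acid hydroxylases Cyp26a1 and Cyp26b1, the nuclear receptor gene Rarb, the carrier gene Rbp4, the storage and conversion enzymes Lrat and Retsat, and the dehydrogenases and reductases Rdh11, Rdh16 and Dhrs3. They were taken by gene symbol from a table of 27288 genes, and all 9 were found. RNA came from livers of C57BL/6 mice aged 8 to 10 weeks, in 4 groups of 4 libraries: liver-specific DRP1 knockout (KO) on ethanol, wild type (WT) on ethanol, KO without ethanol and WT without ethanol. DRP1, encoded by Dnm1l, is the GTPase that divides mitochondria. Ethanol was given as the Gao-Binge regimen, a period on ethanol diet that ends in a binge dose. The groups without it, labelled Control, are called control diet here. The series title puts the question as what loss of hepatic DRP1 does in alcoholic hepatitis. The labels name neither the promoter that drove the deletion nor the deleted part of Dnm1l, and whether every library is a separate mouse is not stated either, so each p-value covers only the spread among the libraries.

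The liver is the main store of vitamin A. Retinol arrives from the diet, is esterified by LRAT and kept mostly in stellate cells, and leaves for the blood bound to RBP4, which hepatocytes secrete. Alcohol dehydrogenases and retinol dehydrogenases oxidise retinol to retinal, reductases such as DHRS3 return retinal to retinol, and aldehyde dehydrogenases make retinoic acid. Retinoic acid switches genes on through RAR and RXR receptors, and the CYP26 enzymes hydroxylate it for removal. Cyp26a1 and Rarb are textbook targets of retinoic acid, each through a repeated hexamer element in its own promoter.

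That element was read from the RefSeq promoters of GRCm38.p6, since Cyp26a1 carried the largest contrast between the genotypes and Rarb is the receptor of the group. The search took direct repeats of a hexamer with 5 bases between the copies (DR5), on both strands. Each copy could be AGGTCA or any of its relatives, which were AGTTCA as the first variant searched, GGGTCA as the second variant searched and GGTTCA as the third. It covered windows from 250 bases before a RefSeq start to 50 after it. The Rarb window lay inside the annotated gene, chr14:16430839-16819156 on the minus strand, and not at the outer start of that span. All 9 genes had a window, 13 in all. The bases from -250 to -11 are shown 5′ to 3′ along the coding strand of each gene, in lower case with the DR5 in capitals. They lie at chr19:37697558-37697797 on the plus strand for Cyp26a1 and at chr14:16575487-16575726 on the minus strand for Rarb.
Cyp26a1: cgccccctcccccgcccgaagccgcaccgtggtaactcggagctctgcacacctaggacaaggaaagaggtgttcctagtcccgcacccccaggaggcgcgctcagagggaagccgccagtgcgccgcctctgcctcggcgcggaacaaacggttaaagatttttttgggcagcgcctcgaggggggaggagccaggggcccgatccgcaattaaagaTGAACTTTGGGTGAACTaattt
Rarb: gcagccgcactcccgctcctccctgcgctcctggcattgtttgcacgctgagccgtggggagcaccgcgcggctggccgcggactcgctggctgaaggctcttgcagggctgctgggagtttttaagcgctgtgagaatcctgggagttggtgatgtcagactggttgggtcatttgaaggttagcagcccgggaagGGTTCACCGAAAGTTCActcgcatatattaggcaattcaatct
In Cyp26a1 the repeat lay from -32 to -16 and read in the reverse orientation, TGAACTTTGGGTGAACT. In Rarb it lay from -53 to -37 in the forward orientation, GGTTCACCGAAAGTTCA. A DR5 of this form was in 0.0974% of all 32851 windows, those of 31 of 27025 genes, and no window of the other 7 genes held one. The same hexamers separated by 1 base or by 2 bases, in 0.222% and 0.268% of all windows, were in no window of the 9 genes. A match is a description of letters in this window, and binding was not measured.

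Each library held 11425136 to 13864862 reads assigned to genes, and the values below are normalised reads, the read count of a gene divided by 1 size factor per library. Dnm1l averaged 803 ± 99.3 normalised reads in KO livers and 743 ± 38.4 in WT livers on ethanol, and 642 ± 72.7 in KO livers and 663 ± 56.1 in WT livers on control diet (SD, n = 4 each). It was not called different on either diet (log2 difference 0.11, adjusted p = 0.590 on ethanol, and -0.05, adjusted p = 0.825 on control diet). A count over the whole gene does not check a deletion whose extent is not given, so KO and WT stand for the labels throughout. The hepatocyte marker Alb lay between 718685 and 1266037 normalised reads in every library. On control diet it was 841862 to 896186 in KO livers, below all WT libraries at 1060933 to 1266037. On ethanol the genotypes overlapped in Alb. Of 14 hepatocyte markers, Alb among them, 1 was called lower and 0 higher in KO livers on control diet (5.24% and 6.4% of all genes tested). On ethanol 2 of the 14 were lower and 0 higher in KO livers (3.75% and 6.13% of all genes). KO ethanol libraries 1 and 4 stood apart by transcripts of other tissues: the pancreatic gene Ctrb1 had 2563 normalised reads in library 1, against at most 4.81 in any other library, the haemoglobin gene Hba-a1 had 1506 in library 4, against at most 418 elsewhere, and the fat cell gene Adipoq had 9.84 and 18.3 in these libraries and was 0 in the other 14. Results of the KO ethanol group are therefore also given without both libraries.

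All 9 genes passed the filter of a mean of 10 normalised reads and were tested among 13256 genes with limma on log2(value + 1), with fold changes on that scale and a call where the p adjusted over all genes tested by Benjamini-Hochberg was under 0.05. In KO livers ethanol changed 5 of the 9, where 19.2% of all genes tested were called, with 3 of the 9 higher (10.2% of all genes) and 2 lower (9.01%). In WT livers ethanol also changed 5 of the 9, where 38.0% of all genes were called, with 3 higher (18.9% of all genes) and 2 lower (19.0%). Between KO and WT livers on ethanol 2 of the 9 differed, where 9.88% of all genes were called, and both were lower in KO (3.75% of all genes, with 6.13% higher). On control diet 1 of the 9 differed, Rdh16, where 11.6% of all genes were called, and it was lower in KO (5.24% of all genes, with 6.40% higher). In the test of whether the ethanol effect differed between KO and WT, 1 of the 9 was called, Cyp26a1, where 0.347% of all genes were (0.143% higher and 0.204% lower). The share of the 9 genes called was near the background on control diet and above it in the other comparisons, with no test made of the list. The median log2 difference over the 9 was 0.46 for ethanol in KO livers, 0.18 for ethanol in WT livers, -0.20 for KO against WT on ethanol and -0.33 on control diet, against -0.01, -0.01, -0.02 and -0.01 over all genes tested.

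**Figure D1:**
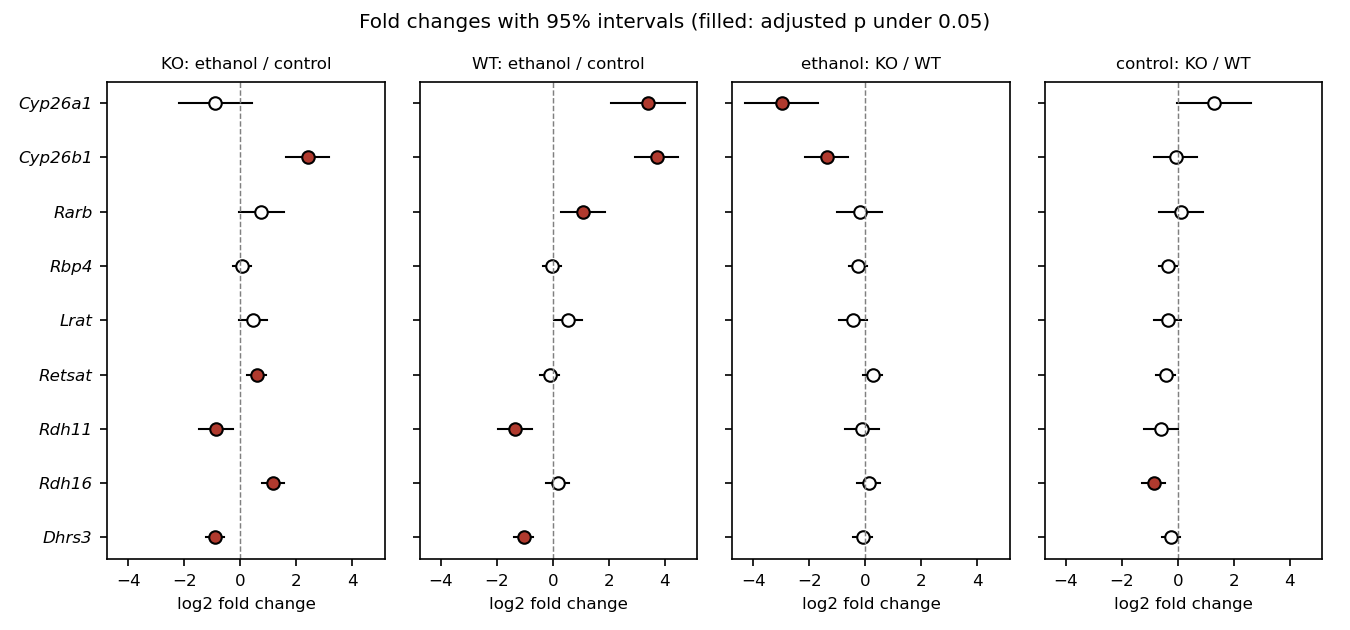
Log2 fold changes of the 9 genes with 95% intervals from limma in 4 comparisons, ethanol over control diet in KO and in WT livers and KO over WT on ethanol and on control diet; filled points passed an adjusted p of 0.05. Cyp26a1 and Cyp26b1 lie far to the right in WT livers on ethanol (3.40 and 3.71) and to the left for KO over WT on ethanol (-2.99 and -1.37), while Rbp4 lies near 0 in every panel.

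Cyp26a1 (ENSMUSG00000024987, GRCm38 chr19:37697798-37701536, plus strand) encodes the main retinoic acid hydroxylase of liver. On ethanol it had 49.2, 102, 209.8 and 345 normalised reads in KO libraries 1 to 4, against 676, 665, 1460.3 and 2262 in the WT libraries. On control diet it had 404, 384, 77.3 and 355 in KO livers, against 212, 81.5, 126 and 52.9 in WT livers. Every WT ethanol library stood above all other 12 libraries, and the KO ethanol libraries overlapped both control groups. In KO livers the value on ethanol was 0.543 times that on control diet (95% interval 0.219 to 1.34, adjusted p = 0.334), a difference that did not pass the test. It depended on the libraries used: with only ethanol libraries 3 and 4 the log2 difference in KO livers was 0.074 (adjusted p = 0.957). In WT livers Cyp26a1 was 10.6-fold higher on ethanol than on control diet (95% interval 4.26 to 26.1, log2 3.40 ± 0.62 SE, adjusted p = 0.000484, exact two-sided permutation p = 0.0286, which is the smallest that 4 against 4 libraries can give).

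On ethanol Cyp26a1 was lower in KO than in WT livers, at 0.126 times the WT level (95% interval 0.0510 to 0.313, log2 -2.99 ± 0.62 SE, adjusted p = 0.00470), with no overlap between the groups. Without KO ethanol libraries 1 and 4 the log2 difference was -2.91 (adjusted p = 0.0272). On control diet Cyp26a1 averaged 305 ± 153 in KO livers and 118 ± 69.4 in WT livers (SD, n = 4 each), a 2.45-fold difference that did not pass (95% interval 0.990 to 6.07, adjusted p = 0.197).

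The ethanol effect on Cyp26a1 was log2 -0.88 ± 0.62 in KO livers and 3.40 ± 0.62 in WT livers (SE), and the difference of the effects, -4.28 ± 0.88, was called at an adjusted p of 0.0450. That call is close to the threshold. It was lost in edgeR (log2 -4.20, adjusted p = 0.0511), with the replicate number as a block (adjusted p = 0.0739) and without KO ethanol libraries 1 and 4 (log2 -4.20, adjusted p = 0.228). It was also lost on leaving out any 1 of 14 libraries, at log2 -3.79 to -4.72 and adjusted p from 0.0535 to 0.116. The call stayed without WT ethanol library 3 or KO control library 3.

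**Figure D2:**
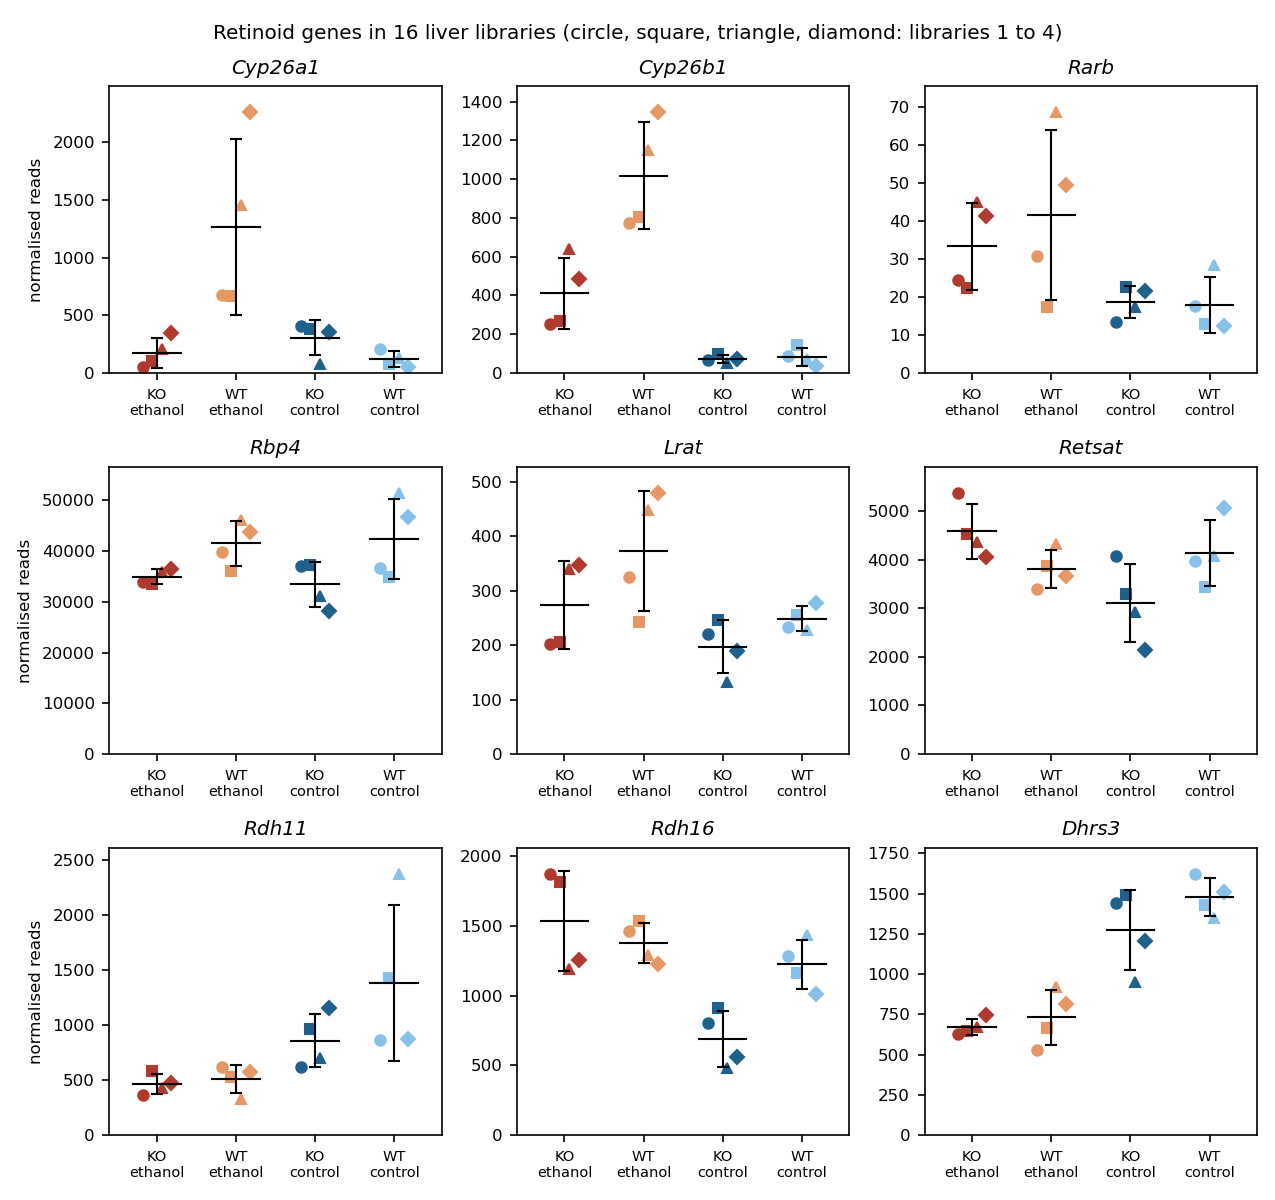
Normalised reads of the 9 genes in the 16 libraries, by group, with marker shape giving the library number, horizontal lines the group mean and bars the SD; axes start at 0 and differ in range. Cyp26a1 lies at 665 to 2262 in WT ethanol livers and at 345 or below in KO ethanol livers, and Cyp26b1 is above its control-diet range in both ethanol groups.

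Cyp26b1 (ENSMUSG00000063415, chr6:84571414-84593908, minus strand), the sister hydroxylase, was raised by ethanol in both genotypes. It had 254, 271, 638 and 485 normalised reads in KO and 774, 804, 1152 and 1346 in WT livers on ethanol. Without ethanol it had 66.3, 96.6, 52.5 and 74.7 in KO and 86.8, 145, 71.5 and 34.3 in WT livers. Neither ethanol group overlapped its control group, nor did the ethanol groups overlap each other. The rise on ethanol was 5.33-fold in KO livers (95% interval 3.13 to 9.08, adjusted p = 0.000333) and 13.1-fold in WT livers (95% interval 7.70 to 22.3, adjusted p = 1.84e-06).

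On ethanol Cyp26b1 was at 0.386 times the WT level in KO livers (95% interval 0.227 to 0.657, log2 -1.37 ± 0.36 SE, adjusted p = 0.0233). This call was lost without WT ethanol library 4 (log2 -1.23, adjusted p = 0.0615), KO ethanol library 1 (log2 -1.18, adjusted p = 0.0804) or KO ethanol library 2 (log2 -1.21, adjusted p = 0.0660), and without KO ethanol libraries 1 and 4 together (log2 -1.25, adjusted p = 0.168). The log2 difference between the ethanol effects, KO minus WT, was -1.30 ± 0.51 SE and did not pass (adjusted p = 0.290). On control diet the genotypes overlapped, at 72.5 ± 18.5 in KO and 84.4 ± 46.1 in WT livers (SD, n = 4 each).

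Per kilobase of exon, the level of Cyp26a1 came nearer to that of Cyp26b1 on ethanol in KO livers. The ratio of Cyp26a1 to Cyp26b1 was 0.523, 1.02, 0.887 and 1.92 in KO ethanol libraries 1 to 4, against 2.36, 2.23, 3.42 and 4.53 in WT ethanol libraries. On control diet it was 16.4, 10.7, 3.98 and 12.8 in KO and 6.59, 1.52, 4.76 and 4.17 in WT libraries. In KO livers the ethanol and control ranges did not overlap, and the log2 ratio was lower on ethanol by a mean difference of -3.32 (exact two-sided permutation p = 0.0286). The ethanol groups did not overlap either, with a mean log2 difference of -1.62, KO minus WT (exact permutation p = 0.0286). In WT livers the ratio on ethanol overlapped that on control diet (log2 difference -0.32, exact permutation p = 0.600), and on control diet KO and WT overlapped (1.38, exact permutation p = 0.114).

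**Figure D3:**
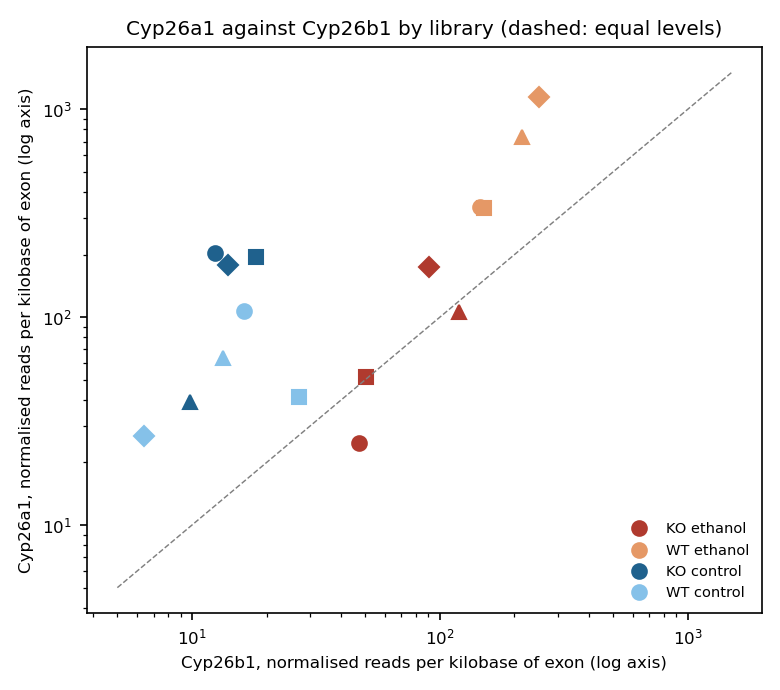
Cyp26a1 against Cyp26b1 in each library, both as normalised reads per kilobase of exon on log axes; colour is the group, marker shape the library number, and the dashed line marks equal levels. WT ethanol libraries lie at the upper right at ratios of 2.23 to 4.53, KO ethanol libraries lie nearer the line at 0.523 to 1.92, and both control groups lie to the left at low Cyp26b1.

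Rarb (ENSMUSG00000017491, chr14:16430839-16819156, minus strand) encodes retinoic acid receptor beta and was the member with the fewest reads. It had 24.6, 22.5, 45.1 and 41.4 normalised reads in KO and 30.7, 17.5, 68.7 and 49.5 in WT livers on ethanol. On control diet it had 13.5, 22.7, 17.5 and 21.6 in KO and 17.7, 12.9, 28.4 and 12.5 in WT livers. The ethanol libraries tended higher, but each ethanol group overlapped its control group. In KO livers the ratio of ethanol to control diet was 1.69 and did not pass (95% interval 0.978 to 2.92, adjusted p = 0.163). In WT livers Rarb was called higher on ethanol, 2.11-fold (95% interval 1.22 to 3.66, adjusted p = 0.0309), while the exact permutation test of the same 8 libraries gave p = 0.0857.

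The difference of the ethanol effects on Rarb was log2 -0.32 ± 0.53 SE (adjusted p = 0.827). The WT call was lost without WT ethanol library 3 (adjusted p = 0.105) or 4 (0.0817), or without WT control library 1 (0.0540), 2 (0.0818) or 4 (0.0873), at log2 0.79 to 1.1. It was also lost with only ethanol libraries 1 and 2 (log2 0.43, adjusted p = 0.385) and in a fit of only the groups compared (adjusted p = 0.0779). With only ethanol libraries 3 and 4 Rarb passed in KO livers as well (log2 1.18, adjusted p = 0.0418). Between the genotypes Rarb overlapped on both diets. Rarb overlaps Top2b and the antisense gene Gm48162, and the strand setting of the counting is not given, so reads of these genes cannot be told apart where they overlap.

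Rbp4 (ENSMUSG00000024990, chr19:38116629-38125281, minus strand), the carrier of retinol in blood, passed no test. On ethanol it had 33857, 33479, 35849 and 36453 normalised reads in KO livers, against 39882, 36143, 46172 and 43818 in WT livers. Control-diet libraries had 37068, 37243, 31170.2 and 28278 in KO livers, against 36686, 34887, 51429 and 46686 in WT livers. Its ratio of ethanol to control diet was 1.05 in KO livers (95% interval 0.842 to 1.31) and 0.987 in WT livers (95% interval 0.791 to 1.23). KO livers were at 0.844 times the WT level on ethanol (95% interval 0.677 to 1.05, adjusted p = 0.344) and at 0.793 times on control diet (95% interval 0.636 to 0.990, adjusted p = 0.170), and the genotypes overlapped on both diets. Per kilobase of exon Rbp4 had the highest level of the 9 genes, 21056 to 38294 over the libraries, and Retsat followed at 606 to 1519.

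Lrat (ENSMUSG00000028003, chr3:82892579-82903973, minus strand) makes the retinyl esters of the store. On ethanol it had 202, 205, 339.7 and 346 normalised reads in KO and 324, 242, 448 and 479 in WT livers, against 219.6, 246, 133 and 190.0 in KO and 233, 254, 228 and 278 in WT livers on control diet. Libraries 3 and 4 of both ethanol groups were the 4 highest of all 16, and libraries 1 and 2 of KO ethanol were within the control range. Lrat was 1.37-fold on ethanol in KO livers (95% interval 0.975 to 1.94, adjusted p = 0.179) and 1.45-fold in WT livers (95% interval 1.03 to 2.05, adjusted p = 0.0794). Neither passed, though the WT difference passed in DESeq2 (adjusted p = 0.0408) and without WT ethanol library 2 (log2 0.73, adjusted p = 0.0228). With only libraries 3 and 4 of the ethanol groups, Lrat passed in KO (log2 0.83, adjusted p = 0.0205) and in WT livers (log2 0.90, adjusted p = 0.00694). Lrat overlaps the antisense gene Rbm46os.

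Stellate cells hold most hepatic LRAT, and 15 stellate cell markers, Lrat among them, were looked at beside it. In KO livers 4 of the 15 were higher on ethanol and 0 lower, where 10.2% of all genes tested were higher, and in WT livers 7 were higher and 1 lower, where 18.9% of all genes were higher. The summed level of the 15 was 5579 to 6230.0 normalised reads in KO and 6283 to 7152 in WT livers on ethanol, against 4190.3 to 5627 in KO and 4519 to 5353 in WT livers on control diet. None of the 15 was at 0 in all libraries. The part of these cells in the Lrat values was not tested, and in bulk liver more cells of a type and more RNA per cell cannot be told apart.

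Retsat (ENSMUSG00000056666, chr6:72598475-72608425, plus strand), which saturates retinol to dihydroretinol, had 5373, 4538, 4366 and 4051 normalised reads in KO and 3395, 3865, 4329 and 3662 in WT livers on ethanol. On control diet it had 4078, 3294, 2929 and 2145 in KO and 3968, 3448, 4081 and 5062 in WT livers. It was called higher on ethanol in KO livers, 1.5-fold (95% interval 1.18 to 1.91, adjusted p = 0.0190), where the lowest ethanol library was just under the highest control library. The call was lost without KO ethanol library 1 (log2 0.51, adjusted p = 0.0625), KO control library 4 (log2 0.42, adjusted p = 0.0569) or KO ethanol libraries 1 and 4 together (log2 0.55, adjusted p = 0.112). With only ethanol libraries 3 and 4 it was lost too (log2 0.47, adjusted p = 0.173). In WT livers the ratio was 0.926 (95% interval 0.729 to 1.18, adjusted p = 0.628), and the difference of the effects did not pass (log2 0.70 ± 0.23 SE, adjusted p = 0.204). Retsat overlaps Gm45053, which is annotated on the opposite strand.

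Dhrs3 (ENSMUSG00000066026, chr4:144892827-144928209, plus strand), the reductase that returns retinal to retinol, fell on ethanol in both genotypes. It had 630.5, 648, 669 and 745 normalised reads in KO and 529, 663, 919.6 and 814 in WT livers on ethanol. Its control-diet values were 1439, 1491, 948 and 1204 in KO and 1621, 1429.5, 1348 and 1512 in WT livers. No ethanol library reached the control range of its genotype. Ethanol livers were at 0.537 times the control level in KO (95% interval 0.427 to 0.677, adjusted p = 0.00109, and 0.0148 without KO ethanol libraries 1 and 4) and at 0.486 times in WT (95% interval 0.386 to 0.612, adjusted p = 9.93e-05). The difference of the effects was log2 0.14 ± 0.22 SE (adjusted p = 0.814), with a 95% interval from -0.33 to 0.61.

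Rdh11 (ENSMUSG00000066441, chr12:79174337-79192293, minus strand), a reductase of retinal, was also lower on ethanol. It had 363, 582, 431 and 471 normalised reads in KO and 615, 524, 332 and 569 in WT livers on ethanol, against 623, 966, 698 and 1153 in KO and 863, 1432, 2374 and 874 in WT livers on control diet. Neither ethanol group overlapped its control group, and the WT control libraries spread the most. The ratio of ethanol to control diet was 0.546 in KO livers (95% interval 0.358 to 0.832, adjusted p = 0.0430) and 0.393 in WT livers (95% interval 0.258 to 0.599, adjusted p = 0.00165). The KO call was lost without KO ethanol libraries 1 and 4 (log2 -0.73, adjusted p = 0.239). It was lost as well without KO ethanol library 1 (adjusted p = 0.114), 3 (0.0825) or 4 (0.0760), KO control library 2 (0.108) or 4 (0.114), or WT control library 2 (0.0505), at log2 -0.72 to -0.89. Fits without the filter (0.0520), without the variance trend (0.0641) and with the replicate number as a block (0.0523) also lost it. So did fits with only ethanol libraries 1 and 2 (0.122) or 3 and 4 (0.151), and 12 of 29 alternatives lost it in all.

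Rdh16 (ENSMUSG00000069456, chr10:127801152-127846565, plus strand), a retinol dehydrogenase, was the member that differed between the genotypes on control diet. It had 805, 913, 479.7 and 560.1 normalised reads in KO livers, against 1284, 1163, 1433 and 1013 in WT livers, with no overlap. KO livers were at 0.550 times the WT level (95% interval 0.415 to 0.729, log2 -0.86 ± 0.19 SE, adjusted p = 0.00827), a call that no left-out library ended (adjusted p from 0.00352 to 0.0289). On ethanol it had 1871, 1817, 1190.2 and 1256 in KO and 1463, 1535, 1288 and 1229 in WT livers, which overlapped (log2 0.13 ± 0.19 SE, adjusted p = 0.741).

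Within KO livers Rdh16 was 2.25-fold higher on ethanol than on control diet (95% interval 1.70 to 2.98, adjusted p = 0.000655, and 0.0112 without KO ethanol libraries 1 and 4). Within WT livers the ratio was 1.13 (95% interval 0.853 to 1.5, adjusted p = 0.494). The difference of the effects, log2 0.99 ± 0.27 SE, did not pass in limma (adjusted p = 0.123) or edgeR and passed in DESeq2 (adjusted p = 0.0365). Rdh16 overlaps the pseudogene Rdh18-ps and has near-identical relatives, among them Rdh1, Rdh7, Rdh9 and Rdh19, so its reads are uncertain where the copies cannot be separated.

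The library numbers divided the ethanol groups in a way the labels do not explain. In both ethanol groups libraries 3 and 4 were higher than libraries 1 and 2 for 6 of the 9 genes (Cyp26a1, Cyp26b1, Rarb, Rbp4, Lrat and Dhrs3) and lower for 1, Rdh16, where 9.65% of all genes tested were higher in this way and 11.2% lower. In the control groups 0 of the 9 genes were divided so in either direction, where 4.76% of all genes were higher and 3.64% lower. This count was made after the values were seen. Within each set the genotypes kept their order for the CYP26 pair: Cyp26a1 in KO livers was 0.113 times the WT mean in libraries 1 and 2 and 0.149 times in libraries 3 and 4, and Cyp26b1 was 0.332 and 0.450 times. Fitted on libraries 3 and 4 of the ethanol groups alone, the genotype differences no longer passed for Cyp26a1 (log2 -2.75, adjusted p = 0.0684) or Cyp26b1 (log2 -1.16, adjusted p = 0.260). On libraries 1 and 2 alone Cyp26b1 also fell just short (log2 -1.59, adjusted p = 0.0520).

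Around the 9 genes, 52 further retinoid enzymes, carriers and receptors were listed, of which 49 were in the table and 40 were tested. Ethanol raised 6 and lowered 10 of the 40 in KO livers, where 10.2% of all genes tested were higher and 9.01% lower. It raised 9 and lowered 12 in WT livers, where 18.9% of all genes were higher and 19.0% lower. Between KO and WT livers 1 was higher and 2 lower on ethanol (6.13% and 3.75% of all genes), and 2 were higher and 7 lower on control diet (6.40% and 5.24%). In the test of whether the ethanol effect differed between KO and WT, 0 of the 40 passed in limma or edgeR and 2 in DESeq2, while 6 had an unadjusted limma p under 0.05. The median log2 difference of the 40 was -0.23 for ethanol in KO livers, -0.23 for ethanol in WT livers, -0.14 for KO against WT on ethanol and -0.17 on control diet.

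On ethanol the enzymes that make retinal moved in both directions. Adh4, a retinol-oxidising alcohol dehydrogenase, averaged 515 ± 30.2 normalised reads in KO and 392 ± 57.0 in WT livers on ethanol, against 1739 ± 501 in KO and 1820.1 ± 82.0 in WT livers on control diet (SD, n = 4 each), a fall by 1.71 on the log2 scale in KO livers (adjusted p = 4.69e-06) and by 2.22 in WT livers (adjusted p = 9.48e-08). Bco1, which cleaves beta-carotene to retinal, was higher on ethanol by log2 1.43 in KO (adjusted p = 0.000625) and 1.71 in WT livers (adjusted p = 4.05e-05). Bco2, which cleaves carotenoids off centre, was lower by log2 -1.08 in KO (adjusted p = 0.000690) and -1.56 in WT livers (adjusted p = 8.54e-06). Over the 25 other enzymes tested, 2 were higher and 9 lower on ethanol in KO livers (10.2% and 9.01% of all genes tested). In WT livers 4 were higher and 10 lower (18.9% and 19.0% of all genes).

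On control diet, 2 of these 25 enzymes were higher and 5 lower in KO livers (6.4% and 5.24% of all genes tested). Adh7, another retinol-oxidising alcohol dehydrogenase, was lower by log2 -0.90 (adjusted p = 0.00360), Rdh9 was lower by -1.19 (adjusted p = 0.0168, 0.0542 without WT control library 4, with reads it may share with near copies), and the aldehyde oxidase Aox1 was higher by 0.63 (adjusted p = 0.0111). On ethanol 1 of the 25 differed between the genotypes (9.88% of all genes). It was Cyp26c1, the remaining CYP26 hydroxylase, which lies beside Cyp26a1 at chr19:37685581-37693398 on the plus strand and averaged 5.76 ± 6.20 normalised reads in KO and 22.1 ± 11.9 in WT livers (SD, n = 4 each; log2 -2.33 ± 0.69 SE, adjusted p = 0.0411).

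The Cyp26c1 call was weak. Its mean over all libraries passed the filter of 10 through the WT ethanol group, the only group with a mean above 10, so its call hangs on that filter, and it was lost without the filter (adjusted p = 0.0506). It was also lost in edgeR (adjusted p = 0.0668), without KO ethanol libraries 1 and 4 (adjusted p = 0.0875), and without any 1 of KO ethanol library 1 or 2, WT ethanol library 2, 3 or 4, KO control library 2 or 4, or WT control library 4, at log2 -1.65 to -2.53 and adjusted p from 0.0502 to 0.117. Its normalised reads in the libraries were 0, 1.02, 9.50 and 12.5 in KO and 11.1, 12.8, 34.4 and 30.2 in WT livers on ethanol. On control diet they were 9.32, 10.4, 3.68 and 9.01 in KO and 10.8, 3.98, 7.94 and 4.15 in WT livers.

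Of 5 carriers and transporters tested, 1 rose and 1 fell on ethanol in each genotype. Of all genes tested 10.2% were higher and 9.01% lower in KO livers, and 18.9% and 19.0% in WT livers. Fabp5, which can carry retinoic acid into the nucleus, averaged 32.0 ± 18.6 normalised reads in KO and 51.9 ± 27.8 in WT livers on ethanol, against 177 ± 64.2 in KO and 585 ± 153 in WT livers on control diet (SD, n = 4 each). It was lower on ethanol by log2 -2.53 in KO (adjusted p = 0.00112) and -3.66 in WT livers (adjusted p = 1.44e-05), and lower in KO than in WT livers on control diet by -1.75 (adjusted p = 0.0178, and 0.0530 without KO control library 1). Stra6l, the liver receptor for retinol-bound RBP4, was higher on ethanol by log2 1.04 in KO (adjusted p = 0.000198) and 1.09 in WT livers (adjusted p = 3.76e-05). Between the genotypes on ethanol 0 of the 5 passed in limma (9.88% of all genes), and 1 had an unadjusted p under 0.05.

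Of 10 receptors and their partners tested, 3 were higher and 0 lower on ethanol in KO livers (10.2% and 9.01% of all genes tested). In WT livers 4 were higher and 1 lower (18.9% and 19.0% of all genes). Rara, retinoic acid receptor alpha, did not overlap between the genotypes on ethanol: it had 192, 178, 188 and 193 normalised reads in KO and 112, 109.5, 150.5 and 110.0 in WT livers. It was higher in KO than in WT livers by log2 0.65 ± 0.15 SE (adjusted p = 0.0125, and 0.131 without KO ethanol libraries 1 and 4). This Rara call was also lost with only ethanol libraries 1 and 2 (adjusted p = 0.0630) or only 3 and 4 (0.281). Ethanol against control diet gave a log2 difference of 0.07 in KO livers (adjusted p = 0.787), and Rara was lower on ethanol in WT livers by -0.89 (adjusted p = 0.000332). The difference of these effects did not pass (log2 0.96, adjusted p = 0.0734). Rarg, retinoic acid receptor gamma, was higher on ethanol by log2 0.87 in KO (adjusted p = 0.0164) and 1.01 in WT livers (adjusted p = 0.00299). The KO call for Rarg was lost without KO ethanol library 3 (adjusted p = 0.0523) or 4 (0.0570). It was also lost without KO ethanol libraries 1 and 4 together (0.0573) and with only ethanol libraries 1 and 2 (0.218).

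The orphan receptor Rora was higher on ethanol by log2 0.89 in KO (adjusted p = 0.00169) and 0.75 in WT livers (adjusted p = 0.00213), and the corepressor Nrip1 by 0.90 in KO (adjusted p = 0.000890) and 0.90 in WT livers (adjusted p = 0.000305). On control diet Rora was lower in KO livers by -0.62 (adjusted p = 0.0223), a call lost without KO control library 3 (0.0603) or 4 (0.0520) or WT control library 3 (0.0685). The corepressor Ncor1 was lower in KO than in WT livers on ethanol by -0.26 (adjusted p = 0.0483). Leaving out any 1 of 14 libraries ended that call, at adjusted p from 0.0551 to 0.135. So did the replicate number as a block over all 16 libraries (0.0865).

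**Figure D4:**
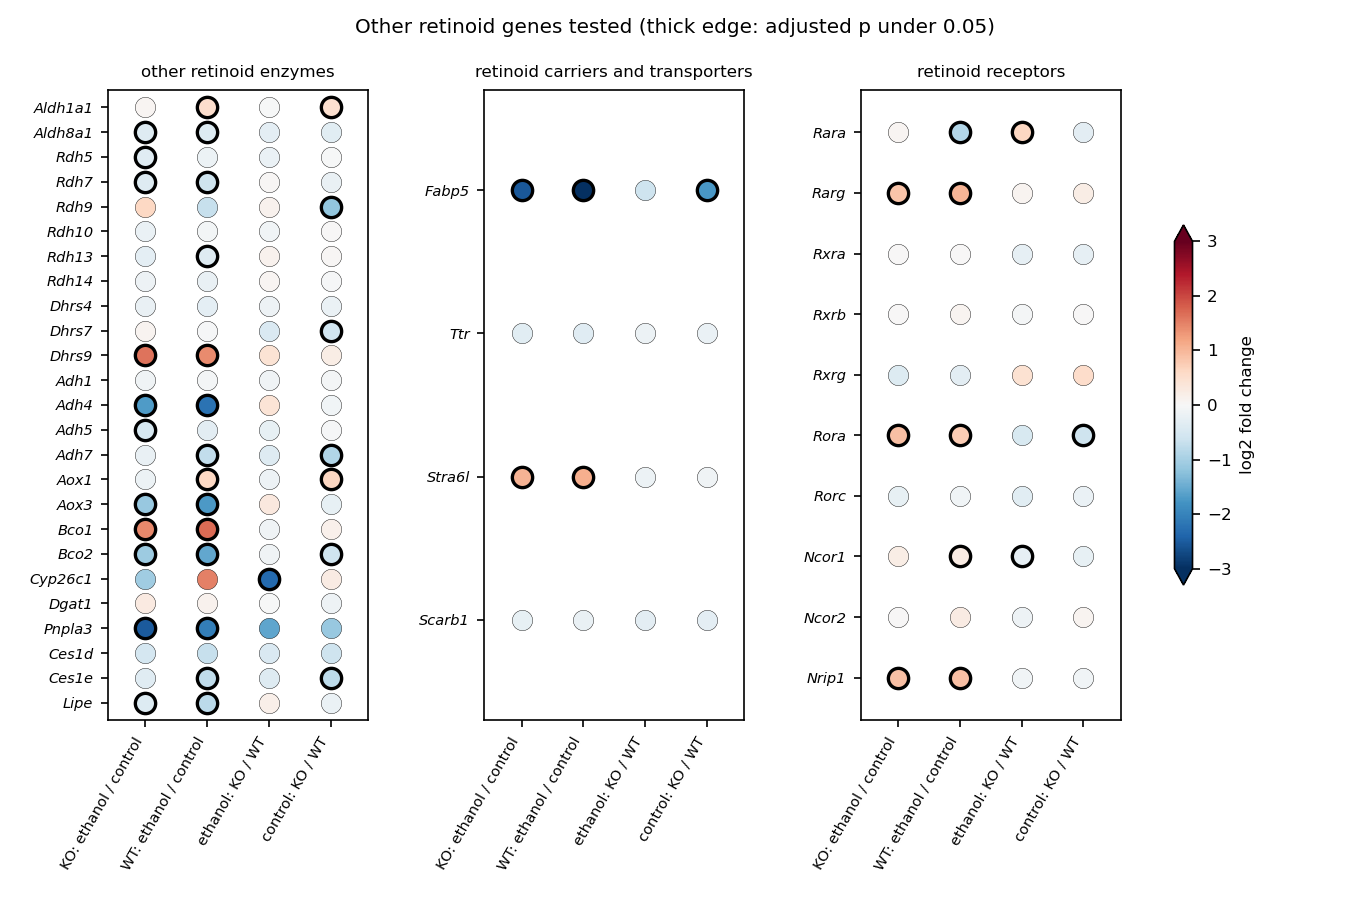
Log2 fold changes of the further retinoid genes named on the axes, as a colour scale from -3 to 3, for ethanol over control diet in KO and WT livers and for KO over WT on ethanol and on control diet; thick edges mark an adjusted p under 0.05. The first 2 columns of each panel hold most of the thick edges, and in the column for KO over WT on ethanol only Cyp26c1, Rara and Ncor1 have a thick edge.

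Of 18 genes listed for their response to retinoic acid, 14 were tested, and some of them, Dhrs9 and Stra6l included, also stand in the lists above. On ethanol 4 were higher and 1 lower in KO livers (10.2% and 9.01% of all genes tested). In WT livers 6 were higher and 2 lower (18.9% and 19.0% of all genes). Between the genotypes on ethanol 0 passed in limma, where 9.88% of all genes were called, and 1 had an unadjusted p under 0.05. On control diet 2 passed, both lower in KO (5.24% of all genes). Tgm2, a transglutaminase, averaged 2538 ± 251 normalised reads in KO and 3366 ± 1790 in WT livers on ethanol, against 1165 ± 156 in KO and 1010.2 ± 159 in WT livers on control diet (SD, n = 4 each). Its ethanol difference was log2 1.13 in KO (adjusted p = 0.00609) and 1.59 in WT livers (adjusted p = 0.000174). Dhrs9, a retinol dehydrogenase, was higher on ethanol by 1.64 in KO livers (adjusted p = 0.00228, and 0.0555 without KO ethanol libraries 1 and 4) and by 1.42 in WT livers (adjusted p = 0.00230).

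Srebf1, the lipogenic factor that is also under other control, was lower on ethanol by log2 -2.42 in KO (adjusted p = 4.07e-05) and -2.72 in WT livers (adjusted p = 3.75e-06). On control diet Cpt1a, which admits fatty acids to mitochondria, was lower in KO livers by -0.46 (adjusted p = 0.0136), and Nr0b2, the repressor SHP, by -2.02 (adjusted p = 0.0365). The Nr0b2 call was lost in edgeR (0.0589), in DESeq2 (0.0684) and without KO control library 3 (0.0596) or 4 (0.0510) or WT control library 1 (0.0884), 2 (0.0684) or 4 (0.0868).

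The 5 genes whose pattern over the 16 libraries lay closest to Cyp26a1 were found from the root mean square of the differences in log2(value + 1), each gene centred on its own mean, with predicted genes left out. They were Cyp26c1 (0.804), the keratin gene Krt23 (0.979), Tsku, which encodes a secreted proteoglycan (1.14), Cyp3a59 (1.16) and Cyp1a2, a pericentral drug-metabolising enzyme (1.17), where the median gene lay at 1.62 and Cyp26b1 at 1.35. Cyp1a2 averaged 6087 ± 1071 normalised reads in KO and 11330.3 ± 1648 in WT livers on ethanol, against 4873 ± 1383 in KO and 3884 ± 343 in WT livers on control diet (SD, n = 4 each). Krt23 averaged 12.2 ± 5.47 in KO and 53.9 ± 24.5 in WT livers on ethanol, against 8.70 ± 5.65 in KO and 9.35 ± 5.52 in WT livers on control diet. These genes were chosen by their likeness to Cyp26a1, so their values are a description. Only genes past the filter were compared, and Cyp26c1 passed it through the WT ethanol group, where Cyp26a1 was also highest. The place of Cyp26c1 as the closest gene thus hangs partly on that filter.

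**Figure D5:**
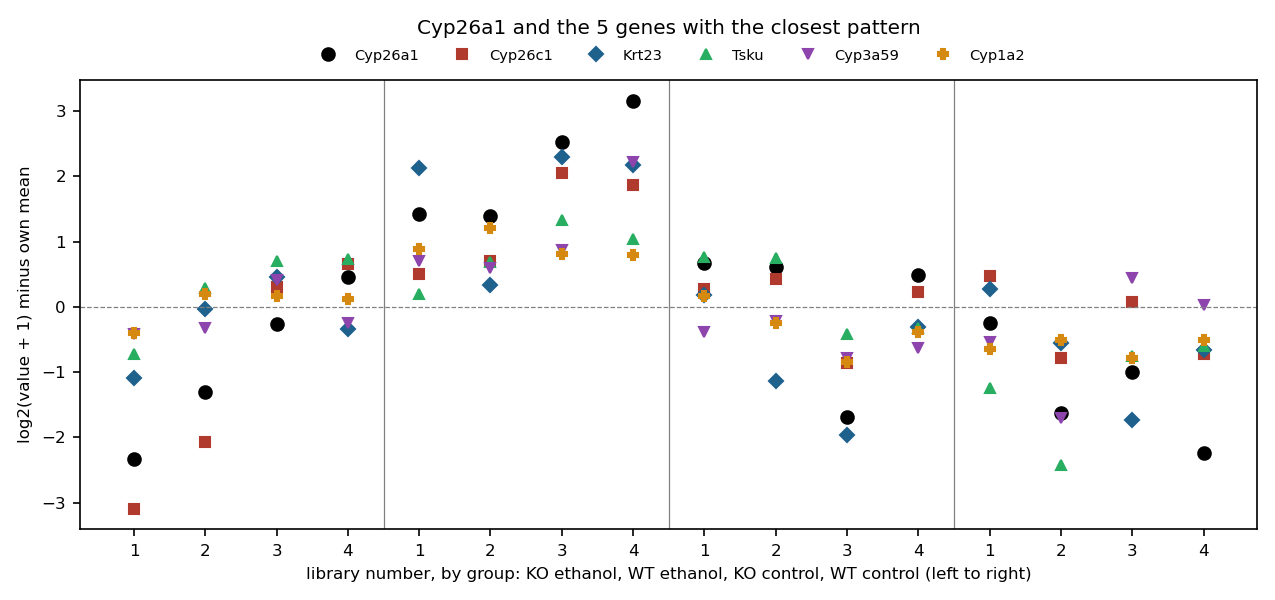
Cyp26a1 and the 5 genes with the closest pattern, as log2(value + 1) minus each gene's own mean, for the 4 libraries of each group from left to right: KO ethanol, WT ethanol, KO control and WT control. All 6 genes are above their own mean in every WT ethanol library, and in KO ethanol library 1 Cyp26c1 and Cyp26a1 are the lowest of the 6.

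Pericentral and Kupffer cell markers differed between the genotypes on both diets. Cyp26a1 expression in liver is known to favour hepatocytes near the central vein. Of 16 pericentral markers 6 were lower and 0 higher in KO than in WT livers on ethanol (3.75% and 6.13% of all genes tested). On control diet 5 were lower and 1 higher in KO livers (5.24% and 6.4% of all genes). The summed level of the 16 was 65943 to 93711 normalised reads in KO and 120454 to 161534 in WT livers on ethanol. On control diet it was 73305 to 93641 in KO and 122313 to 152887 in WT livers. Of 12 Kupffer cell markers 12 were higher in KO than in WT livers on ethanol (6.13% of all genes). Their sums were 6331 to 8173 in KO and 1176 to 1748 in WT livers on ethanol. On control diet 7 were higher and 0 lower in KO livers (6.4% and 5.24% of all genes). Ethanol against control diet lowered 2 of the 12 in KO livers (9.01% of all genes) and 11 in WT livers (19.0%). The control sum was 7442 to 11846 in KO and 3176 to 7206 in WT livers. Neither the pericentral nor the Kupffer sums of KO and WT livers overlapped on either diet. Within each genotype the pericentral sum on ethanol overlapped that on control diet. No pericentral or Kupffer marker was at 0 in all libraries, and the part of either cell population in the CYP26 values was not tested.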

How the data were processed

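RNA-seq libraries from mouse liver, 4 for each genotype and diet, were sequenced as 75-base single reads from Trizol-extracted total RNA, per the labels' protocols. HISAT2 2.1.0.13, HTSeq, edgeR and the genome build GRCm38 are named in the submitters' processing notes, without roles or strand setting. The deposited values are a normalised signal per gene, in which counts of reads had been scaled by a factor for each library (0.814 to 1.263). The values themselves show this: multiplied back, 100% came out as whole reads within 0.01. Of 27288 gene identifiers, 27233 matched a symbol and coordinates in the GRCm38 annotation.

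The 9 genes were taken by symbol. They, the further gene lists and the libraries looked at separately were chosen with earlier results of these data known. The main test used limma 3.58.1 (R 4.3.3), applied to log2(value + 1) with a mean-variance trend, as 1 fit of 4 group means over 13256 genes with a mean of at least 10, with Benjamini-Hochberg adjustment over all of them. It was tested on simulated data. edgeR 4.0.16 and DESeq2 1.42.0 were run on the recovered counts as alternatives, and single values also by an exact two-sided permutation of 4 against 4 libraries. Levels were compared between genes per kilobase of exon. Of each further list (retinoid enzymes, carriers, receptors and response genes), up to 3 called genes with the smallest p were named per comparison, and 1 gene counted in these lists is not reported here by itself.

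Libraries within a group differed by more than counting error (chi-square per gene 11.1 to 121 between replicates), so none was counted as a repeat. For the ethanol groups, same-numbered libraries deviated together (correlation 0.102 to 0.246). So did different numbers within libraries 1 and 2 and within libraries 3 and 4 (0.0975 to 0.199). Correlations across these sets were all negative, down to -0.25. The data thus showed sets of libraries and not pairs by number, and the labels give neither. The block was by replicate number over all 4 groups, and blocked values are given where they change a call. In the other comparisons same-numbered libraries did not deviate together.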

Additional observations from a re-analysis of the deposited data

Results flagged for a closer look

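Cyp26a1 in KO livers on control diet had 1 library far from the others. Library 3 had 77.3 normalised reads, against 355 to 404 in the other 3, and its gap to the nearest was 0.849 of the group's range, above Dixon's 95% critical value for 4 samples. It was the only 1 of 36 groups of 4 libraries, over the 9 genes, past that value, and chance flags about 1 in 20 groups. Without this library the ethanol effect on Cyp26a1 in KO livers was log2 -1.45 (adjusted p = 0.0818).

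The ethanol effect on Cyp26a1 differed between KO and WT livers by log2 -4.28 in the test of that difference (adjusted p = 0.0450). The effect itself was -0.88 in KO livers and 3.40 in WT livers. The call was lost under several alternatives, which are given with the processing.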

How the results depend on the processing

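The 9 genes gave 45 results, which were recomputed under 29 alternatives where these could be fitted, 1264 values in all. Of these, 1183 kept their direction and their side of the threshold, 49 lost a call, 7 gained one and 25 changed direction. The calls for Cyp26a1 and Cyp26b1 on ethanol in WT livers, for Cyp26b1 and Rdh16 on ethanol in KO livers, for Rdh11 on ethanol in WT livers, for Dhrs3 on ethanol in both genotypes and for Rdh16 on control diet kept their direction and passed under each alternative run. The cause of the changes below was not tested, beyond the fewer libraries in some fits.

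Counts moved by over 1.5 times as follows. Over all genes, ethanol in KO livers changed 2543 genes, but 1370 with only ethanol libraries 3 and 4 and 1003 without KO ethanol libraries 1 and 4. Ethanol in WT livers changed 5032, but 3164 with only ethanol libraries 3 and 4. KO and WT on ethanol differed in 1310 genes, but in 434 with only libraries 3 and 4 and 496 without KO ethanol libraries 1 and 4. The difference of the ethanol effects passed for 46 genes in limma, 265 in DESeq2, 30 in edgeR, 264 with only ethanol libraries 1 and 2, 16 without the variance trend, and 0 with only ethanol libraries 3 and 4 or without KO ethanol libraries 1 and 4. At an unadjusted limma p under 0.05 there were 1772.

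Of the 9 genes, ethanol in KO livers changed 3 without KO ethanol libraries 1 and 4. KO and WT on ethanol differed in 1 with only ethanol libraries 1 and 2, 0 with only libraries 3 and 4, and 1 without KO ethanol libraries 1 and 4. The difference of the effects passed for 2 in DESeq2 and for 0 in edgeR, with only libraries 3 and 4, without the trend, and without KO ethanol libraries 1 and 4. Of the 40 further genes, ethanol in KO livers changed 8 without KO ethanol libraries 1 and 4. KO and WT on ethanol differed in 1 in edgeR, 1 with only libraries 3 and 4, 1 without the filter, and 0 without KO ethanol libraries 1 and 4. The difference of the effects passed for 2 in DESeq2 and 3 with only ethanol libraries 1 and 2.

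Leaving out 1 library at a time, KO and WT differed in 922 to 1691 genes on control diet and 848 to 1685 on ethanol, and the difference of the effects passed for 8 to 215. Of the 9 genes the counts were 1 to 2 on control diet, 1 to 2 on ethanol, 0 to 1 for the difference of the effects and 3 to 5 for ethanol in KO livers. Of the 40 further genes they were 4 to 10, 1 to 4 and 0 to 1 in the same order.

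With the replicate number as a block, the difference of the effects passed for 24 genes over all and for 0 of the 9 (Cyp26a1, adjusted p = 0.0739), and Rdh11 on ethanol in KO livers had an adjusted p of 0.0523. For KO against WT on ethanol, Cyp26a1 (adjusted p = 0.0104) and Cyp26b1 (adjusted p = 0.0392) kept their calls under the block. In that comparison libraries of the same set (1 and 2, or 3 and 4) deviated together.

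Apart from Cyp26a1, directions changed for log2 differences near 0. Cyp26a1 for ethanol in KO livers was -0.88 in the main fit and 0.074 with only ethanol libraries 3 and 4. In that reduced fit Rbp4 was 0.10 for ethanol in WT livers and Dhrs3 -0.056 for the difference of the effects. Rdh11 was 0.051 and Rdh16 -0.042 there for KO against WT on ethanol. With only libraries 1 and 2 the changed values were Dhrs3 0.11 and Rarb 0.018 for KO against WT on ethanol. In the same comparison Rdh11 was 0.012 without KO ethanol libraries 1 and 4. With 1 library left out the ranges were, for KO against WT on control diet, Cyp26b1 -0.44 to 0.24, Dnm1l -0.11 to 0.033 and Rarb -0.018 to 0.36. On ethanol they were Dhrs3 -0.24 to 0.028 and Rarb -0.55 to 0.090. For Rbp4 they were -0.0064 to 0.13 for ethanol in KO livers, -0.11 to 0.080 in WT livers and -0.0091 to 0.18 for the difference of the effects, which was -0.00043 to 0.26 for Dhrs3 and -0.27 to 0.054 for Lrat.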

Other observations

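Of the 31 genes with a DR5 in the promoter window, 3 were tested: Cyp26a1, Rarb and Blvrb, which encodes biliverdin reductase B. On ethanol 0 of the 3 were called in either direction in KO livers in limma, where 19.2% of all genes tested were called. In WT livers all 3 were called higher, where 18.9% of all genes were, with Blvrb higher by log2 0.72 (adjusted p = 0.00699). Between the genotypes on ethanol Cyp26a1 was called lower in KO livers, and no other of the 3 passed. Of all genes tested 9.88% were called in that comparison, 3.75% of them lower in KO livers. The genes were counted after their values were seen, and with 3 genes the count is a description.

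Of 5 myofibroblast markers tested, 4 were higher in KO than in WT livers on ethanol (6.13% of all genes tested). On control diet 1 was higher in KO livers (6.4% of all genes). The sum was taken over all 8 listed markers, 3 of them with a mean under 10 and not tested. It was 704 to 1434 normalised reads in KO and 335 to 546 in WT livers on ethanol. On control diet it was 731 to 1365 in KO and 529 to 733 in WT livers. Lrat itself was not called between the genotypes on either diet.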
